A study of Homo sapiens with 36 samples.

Results

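43 genes of the bone morphogenetic protein (BMP) and transforming growth factor beta (TGF-beta) pathway were measured by RNA sequencing in 3 human cancer cell lines. The list was chosen with earlier results of these data known. Shares of its genes set against those of all genes are therefore descriptions, not independent tests. The 43 genes were taken by symbol, as listed members of the pathway, from a table of 26475 genes. All 43 were found. By role they comprise 6 BMP ligands, 5 TGF-beta or activin ligands, 4 genes of ligand processing and latency, 4 secreted antagonists, 11 receptors (with the pseudoreceptor BAMBI), 8 SMADs and 5 target genes.

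BMP, TGF-beta and activin ligands are secreted dimers that bring together type I and type II serine/threonine kinase receptors, and the activated type I receptor phosphorylates receptor-regulated SMAD proteins. SMAD1, SMAD5 and SMAD9 carry the BMP branch and SMAD2 and SMAD3 the TGF-beta and activin branch. Both work with SMAD4 in the nucleus, and SMAD6 and SMAD7 are feedback inhibitors that the pathway itself induces. In epithelial tumours the pathway is known for its opposing roles, restraining growth in some settings and promoting invasion in others.

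Each cell line carried a lentiviral pGIPZ vector with targeting hairpin 1, targeting hairpin 2 or a non-silencing hairpin, so the control cells carried the vector as well. MDA-MB-468 cells come from a breast cancer of the basal-like type, PANC-1 cells from a carcinoma of the pancreas, and WiDr cells from an adenocarcinoma of the colon or rectum. All were grown in DMEM with serum. A further experiment gave WiDr cells CRISPR guide 1, guide 2 or a non-targeting guide. Each of the 12 groups had 3 libraries, which the design text calls biological replicates, and the 2 constructs of an experiment share the same 3 control libraries. A check of the labels went against those of the libraries labelled hairpin 2 in PANC-1, and every direction drawn from these libraries carries that doubt. In the guide experiment, 4 of the 6 targeting libraries have a genotype field that names the other guide, and the guides were assigned by title.

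Library totals ran from 28371127 to 49237322 counts. Lineage markers fitted the line names in part. KRT5 lay at 1560 to 1824 CPM (library-scaled counts) in MDA-MB-468 controls and at most 0.0598 CPM in the other controls, VIL1 at 51.1 to 70.6 CPM in the WiDr controls and at most 0.377 CPM elsewhere, and VIM at 3459 to 4372 CPM in PANC-1 controls. The ductal keratin KRT7 was low in PANC-1, at 5.62 to 8.76 CPM. Of the listed leukocyte and fibroblast markers, PTPRC, CD3E, COL1A2 and DCN stayed at 0.12 CPM or below in all controls. COL1A1, on the same fibroblast list, had enough counts to be tested with guides in WiDr. The levels of LUM, PDGFRA, CD68 and LYZ are not given here, and foreign RNA was not tested. 4 ribosomal RNA genes took 0.838% to 2.60% of counts with hairpin 1 and 1.22% to 1.80% in the libraries labelled hairpin 2 in PANC-1, against 4.61% to 9.60% in their controls. In WiDr they took 5.38% to 10.2% with hairpin 2 and 1.27% to 2.56% with hairpin 1, against 1.59% to 2.71% in the controls. Control replicate 1 stood apart from the other controls in both PANC-1 and MDA-MB-468, where its counts differed from theirs with a chi-square per degree of freedom of 135 to 177, against 23.1 and 25.9 between the other controls.

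Control levels of many pathway genes differed between the 3 lines. The plot of control levels shows the mean of each gene in each control group. These levels were scaled within each experiment, were not tested between lines and are compared only within a gene.

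**Figure D1:**
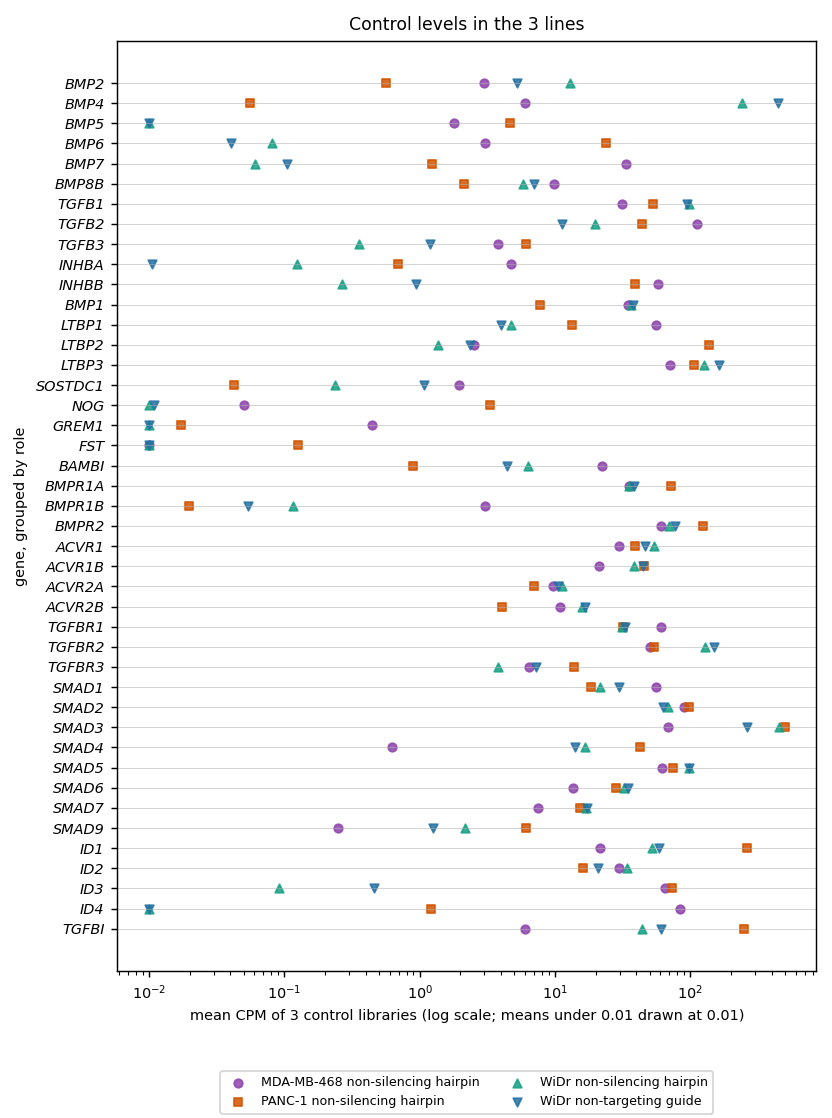
Mean CPM of each of the 43 genes in the 4 control groups (3 libraries each), on a log axis, with genes grouped by role and means under 0.01 drawn at 0.01. BMP4 sits at 239 and 446 CPM in the WiDr controls and at 5.98 and 0.06 CPM in MDA-MB-468 and PANC-1, and SMAD4 sits at 0.63 CPM in MDA-MB-468.

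SMAD4, the partner of all receptor-regulated SMADs, averaged 0.63 ± 0.26 CPM in MDA-MB-468 controls, 42.6 ± 1.8 CPM in PANC-1 controls, 16.7 ± 1.1 CPM in WiDr hairpin controls and 14.0 ± 0.75 CPM in WiDr guide controls (SD, n = 3 each). MDA-MB-468 is known to lack the SMAD4 gene. BMP4, a BMP ligand, was highest in the WiDr controls, with 239 ± 10.6 and 446 ± 10.4 CPM in the hairpin and guide experiments. ID4, a helix-loop-helix inhibitor that BMP signals induce, averaged 83.2 ± 13 CPM in MDA-MB-468 controls and 1.22 ± 0.16 CPM in PANC-1 controls, and it was listed at 0 in all 6 WiDr control libraries. ID3, a gene of the same family, was at 65.5 and 72.6 CPM in MDA-MB-468 and PANC-1 controls and at 0.09 and 0.46 CPM in the WiDr controls. TGFBI, a matrix protein named for its induction by TGF-beta, averaged 250 CPM in PANC-1 controls, against 6.03 CPM in MDA-MB-468 and 43.9 and 60.7 CPM in WiDr. FST, which encodes follistatin, an activin antagonist, stayed at or below 0.13 CPM on average in every control group and was tested in no experiment.

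**Figure D2:**
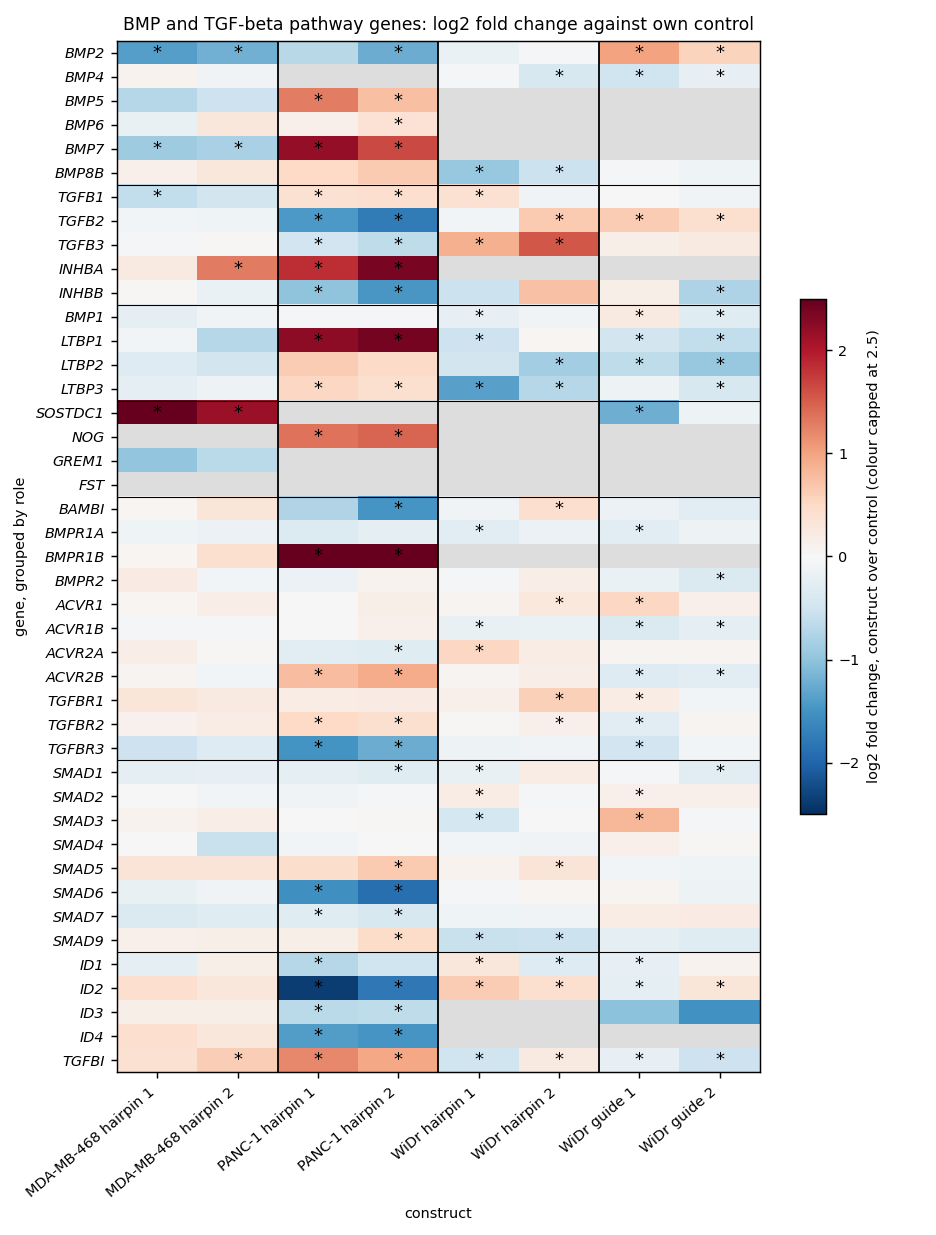
Log2 fold change of each of the 43 genes with each of the 8 constructs over its own control (3 libraries each), with red for higher and blue for lower. Asterisks mark an adjusted p under 0.05 (edgeR quasi-likelihood test) and grey cells mark genes not tested for low counts. PANC-1 holds 48 of the 121 marked cells and MDA-MB-468 holds 9. Of all genes tested, 30.2% and 33.4% passed with the PANC-1 constructs and 2.27% and 3.49% with those of MDA-MB-468.

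In PANC-1, the latency genes LTBP1 and LTBP3, the antagonist NOG and several ligands rose, while ID2, ID3, ID4 and both inhibitory SMADs fell. In bulk libraries such as these, fewer cells that express a gene and less of its RNA per cell cannot be told apart. 39 of the 43 genes were tested. With hairpin 1, 11 rose and 10 fell, 53.8% of those tested, against 30.2% of all 15128 genes tested, 16.2% up and 14% down (edgeR quasi-likelihood test, Benjamini-Hochberg adjusted p under 0.05, here and below). In the libraries labelled hairpin 2, 14 rose and 13 fell, 69.2% against 33.4% of all genes (16.7% in each direction). 20 genes passed in 1 direction with both constructs, 11 up and 9 down, which is 51.3% of those tested against 23.8% of all genes (12.7% up and 11.1% down). Without control replicate 3 this count was 14, and without control replicate 1, the library that stands apart, it was 28. The share of all genes in these 2 fits is not given here, so neither count can be set against 23.8%. With the 4 ribosomal RNA genes taken out of the fit, all calls of the PANC-1 comparisons were kept.

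Among the BMP ligands, BMP7 and BMP5 rose. BMP7, a ligand of the BMP branch known from kidney and bone development, had 5.18, 5.64 and 5.95 CPM with hairpin 1 and 4.10, 3.57 and 3.85 CPM in the libraries labelled hairpin 2, against 0.975, 0.987 and 1.71 CPM in the controls. Every library of either construct lay above every control library. The log2 fold change was 2.19 ± 0.21 (SE; adjusted p = 8.4e-05) with hairpin 1 and 1.65 ± 0.21 (adjusted p = 0.00042) in the libraries labelled hairpin 2. BMP5 averaged 11.4 ± 1.1 CPM with hairpin 1 and 7.94 ± 0.73 CPM in the libraries labelled hairpin 2, against 4.67 ± 1.2 CPM in controls (SD, n = 3 each), log2 fold changes of 1.28 and 0.76. BMP2 and BMP6 passed only in the libraries labelled hairpin 2, at -1.25 and 0.36 on the log2 scale, and both calls ended in 4 of 9 fits without 1 library. For BMP2 these were the fits without control replicate 3 or any library labelled hairpin 2 (-1.49 to -1.03), and for BMP6 those without control replicate 2 or 3 or replicate 1 or 3 of the libraries labelled hairpin 2 (0.29 to 0.43). BMP8B did not pass and BMP4 was not tested.

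All 5 TGF-beta and activin ligand genes passed with both constructs, 2 up and 3 down, where 12.7% of all genes rose and 11.1% fell with both. INHBA, the activin A subunit gene, had 3.29, 2.16 and 1.91 CPM with hairpin 1 and 3.44, 3.05 and 4.14 CPM in the libraries labelled hairpin 2, against 0.411, 0.658 and 1.00 CPM in the controls, log2 fold changes of 1.84 ± 0.32 and 2.37 ± 0.32 (adjusted p = 0.0028 and 0.00064). INHBB, which encodes the activin B subunit, went the other way, with 19.5, 18.7 and 20.3 CPM with hairpin 1 and 15, 14.3 and 13.4 CPM in the libraries labelled hairpin 2, against 37.7, 38.9 and 41.3 CPM in the controls. Its log2 fold changes were -1.01 ± 0.08 and -1.46 ± 0.08 (adjusted p = 3.6e-05 and 5.9e-06). For neither subunit did the constructs overlap the controls.

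TGFB2 had 10.8, 17.8 and 20.5 CPM with hairpin 1 and 12.5, 13.1 and 14.0 CPM in the libraries labelled hairpin 2, against 61.4, 33.5 and 37.6 CPM in the controls. The ranges do not overlap, although control replicate 1 lies far above the other controls. The log2 fold changes were -1.43 ± 0.27 and -1.74 ± 0.27 (adjusted p = 0.0038 and 0.0014), and with any 1 library left out they stayed between -1.14 and -1.91. TGFB3 fell by 0.47 and 0.64 on the log2 scale. TGFB1, the most widely expressed TGF-beta, averaged 69.2 ± 3.0 and 71.4 ± 5.3 CPM with the constructs, against 53.1 ± 5.6 CPM in controls (SD, n = 3 each). It rose by 0.38 and 0.43 on the log2 scale, and these calls ended with hairpin 1 without control replicate 2 or 3 or hairpin 1 replicate 1 or 2, and in the libraries labelled hairpin 2 without their replicate 1 (values from 0.30 to 0.48).

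Among the genes of ligand processing, LTBP1 rose most. It encodes the protein that tethers latent TGF-beta to the matrix. LTBP1 (chr2:32946972-33399509, hg38) had 56.0, 66.6 and 67.5 CPM with hairpin 1 and 67.4, 72.7 and 72.4 CPM in the libraries labelled hairpin 2, against 16.8, 11.5 and 11.9 CPM in the controls. The lowest construct library stood far above the highest control. The log2 fold changes were 2.24 ± 0.15 and 2.40 ± 0.15 (adjusted p = 1.5e-05 and 9.3e-06). LTBP3, a related binding protein, rose by 0.53 and 0.40, the second of which did not pass without control replicate 2 or 3 or without replicate 1 or 2 of the libraries labelled hairpin 2 (0.30 to 0.49). LTBP2 varied widely between libraries, at 215 ± 53 and 193 ± 5.4 CPM with the constructs, against 138 ± 52 CPM in controls (SD, n = 3 each), and did not pass. BMP1, a protease that cleaves procollagen and BMP antagonists, averaged 7.55 and 7.49 CPM with the constructs, against 7.74 CPM in controls, and did not pass.

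Of the 4 listed secreted antagonists, NOG alone had enough counts to be tested in PANC-1. NOG, the gene of the BMP antagonist noggin, had 9.44, 8.02 and 7.81 CPM with hairpin 1 and 9.65, 9.96 and 7.44 CPM in the libraries labelled hairpin 2, against 3.0, 3.62 and 3.31 CPM in the controls. All 6 construct libraries lay above the controls, with log2 fold changes of 1.35 ± 0.15 and 1.45 ± 0.15 (adjusted p = 0.00019 and 0.00012). Noggin binds BMP ligands and keeps them from their receptors.

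Of the 11 receptor genes, 3 rose and 1 fell with both constructs, where 12.7% of all genes rose and 11.1% fell with both. TGFBR3, the betaglycan co-receptor that presents TGFB2 to the signalling receptors, had 4.26, 5.64 and 4.71 CPM with hairpin 1 and 5.77, 5.47 and 6.24 CPM in the libraries labelled hairpin 2, against 14.9, 13.2 and 13.3 CPM in the controls. The groups do not overlap, and the log2 fold changes were -1.50 ± 0.12 and -1.24 ± 0.12 (adjusted p = 3.9e-05 and 0.0001). ACVR2B, an activin type II receptor, rose by 0.76 and 0.94, the first of which did not pass without control replicate 3 or hairpin 1 replicate 3 (0.61 to 0.97), and TGFBR2, the TGF-beta type II receptor, rose by 0.50 and 0.40 on the log2 scale. The calls of TGFBR2 ended in 4 and 6 of 9 fits without 1 library, among them those without control replicate 2 or 3 or hairpin 1 replicate 2 (0.32 to 0.60 over both constructs).

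BMPR1B, a BMP type I receptor gene, was near 0 in PANC-1. Its rounded counts were 11, 13 and 8 with hairpin 1 and 14, 5 and 6 in the libraries labelled hairpin 2, against 0, 1 and 1 in the controls. It passed with both constructs (adjusted p = 0.0054 and 0.0093), and no fold is given at such counts. The receptor genes BMPR1A, BMPR2, ACVR1, ACVR1B and TGFBR1 lay between -0.34 and 0.21 on the log2 scale with either construct and did not pass. ACVR2A passed at -0.30 in the libraries labelled hairpin 2 only, and that call ended in 7 of the 9 fits without 1 library (-0.37 to -0.27).

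The inhibitory SMAD genes were lower. SMAD6, which blocks mainly the BMP branch, had 9.75, 10.1 and 9.47 CPM with hairpin 1 and 8.96, 7.54 and 6.38 CPM in the libraries labelled hairpin 2, against 28.9, 29.2 and 26.5 CPM in the controls. Both sets of construct libraries lay far below the controls, with log2 fold changes of -1.53 ± 0.12 and -1.88 ± 0.12 (adjusted p = 3.5e-05 and 1.0e-05). SMAD7, which blocks both branches, had 12.6, 13.3 and 11.2 CPM with hairpin 1 and 11.3, 11.1 and 12.2 CPM in the libraries labelled hairpin 2, against 14.5, 15.4 and 15.8 CPM in the controls. The shift was small, -0.30 ± 0.095 and -0.40 ± 0.095 on the log2 scale (adjusted p = 0.039 and 0.011), without overlap. The hairpin 1 call of SMAD7 ended in 7 of the 9 fits without 1 library (-0.36 to -0.25), while the other call passed in every one.

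None of the 6 other SMAD genes passed with both constructs, against 23.8% of all genes. SMAD2, SMAD3 and SMAD4 lay between -0.09 and 0.04 on the log2 scale with either construct and did not pass. In the libraries labelled hairpin 2, SMAD5 and SMAD9 rose by 0.66 and 0.46 and SMAD1 fell by 0.31. None of these passed with hairpin 1, where SMAD5, SMAD9 and SMAD1 stood at 0.45, 0.15 and -0.24. The calls of SMAD9 and SMAD1 ended in 6 and 4 of 9 fits without 1 library, among them those without control replicate 2 or 3 (0.36 to 0.54 and -0.34 to -0.30).

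Of the 5 listed targets, ID2, ID3 and ID4 fell and TGFBI rose with both constructs, and ID1 passed with hairpin 1 only. Of all genes, 12.7% rose and 11.1% fell with both. The ID proteins lack a DNA-binding domain, and they hold back basic helix-loop-helix transcription factors. ID2 had 3.04, 3.23 and 3.08 CPM with hairpin 1 and 4.52, 4.23 and 5.23 CPM in the libraries labelled hairpin 2, against 11.6, 19.0 and 17.9 CPM in the controls, log2 fold changes of -2.37 ± 0.19 and -1.79 ± 0.18 (adjusted p = 3.5e-05 and 0.00013). ID4 had 0.485, 0.454 and 0.440 CPM with hairpin 1 and 0.393, 0.518 and 0.402 CPM in the libraries labelled hairpin 2, against 1.10, 1.41 and 1.15 CPM in the controls, log2 fold changes of -1.40 ± 0.22 and -1.47 ± 0.22 (adjusted p = 0.0015 and 0.0011). For both genes every construct library lay below every control.

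ID3 had 54.4, 41.3 and 39.9 CPM with hairpin 1 and 52.0, 49.6 and 38.8 CPM in the libraries labelled hairpin 2, against 56.1, 76.0 and 85.6 CPM in the controls. The groups do not overlap, but control replicate 1 lies just above the constructs. The log2 fold changes were -0.68 ± 0.19 and -0.63 ± 0.19 (adjusted p = 0.022 and 0.028). ID1 had 192, 146 and 141 CPM with hairpin 1 and 203, 189 and 161 CPM in the libraries labelled hairpin 2, against 187, 285 and 314 CPM in the controls. Here the groups overlap, and ID1 passed with hairpin 1 (-0.71 ± 0.20, adjusted p = 0.024) but not in the libraries labelled hairpin 2 (-0.51 ± 0.20, adjusted p = 0.077). The hairpin 1 calls of ID1 and ID3 ended without control replicate 2 or 3 or hairpin 1 replicate 2 or 3. The other call of ID3 ended without control replicate 2 or 3 or any library labelled hairpin 2. Without 1 library, ID1 with hairpin 1 ran from -0.93 to -0.58 and ID3 over both constructs from -0.86 to -0.52.

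TGFBI (chr5:136028895-136063818, hg38) had 554, 586 and 584 CPM with hairpin 1 and 482, 495 and 482 CPM in the libraries labelled hairpin 2, against 247, 251 and 253 CPM in the controls. Each group was tight, and both construct groups stood far above the controls. BAMBI, a pseudoreceptor that dampens signalling and is itself a pathway target, was low, with 0.459, 0.668 and 0.440 CPM with hairpin 1 and 0.368, 0.230 and 0.345 CPM in the libraries labelled hairpin 2, against 0.565, 0.777 and 1.33 CPM in the controls. It passed only in the libraries labelled hairpin 2 (-1.48 ± 0.38, adjusted p = 0.017), a call that ended without control replicate 3 or replicate 2 of those libraries (-1.75 to -1.09 over all fits without 1 library).

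**Figure D3:**
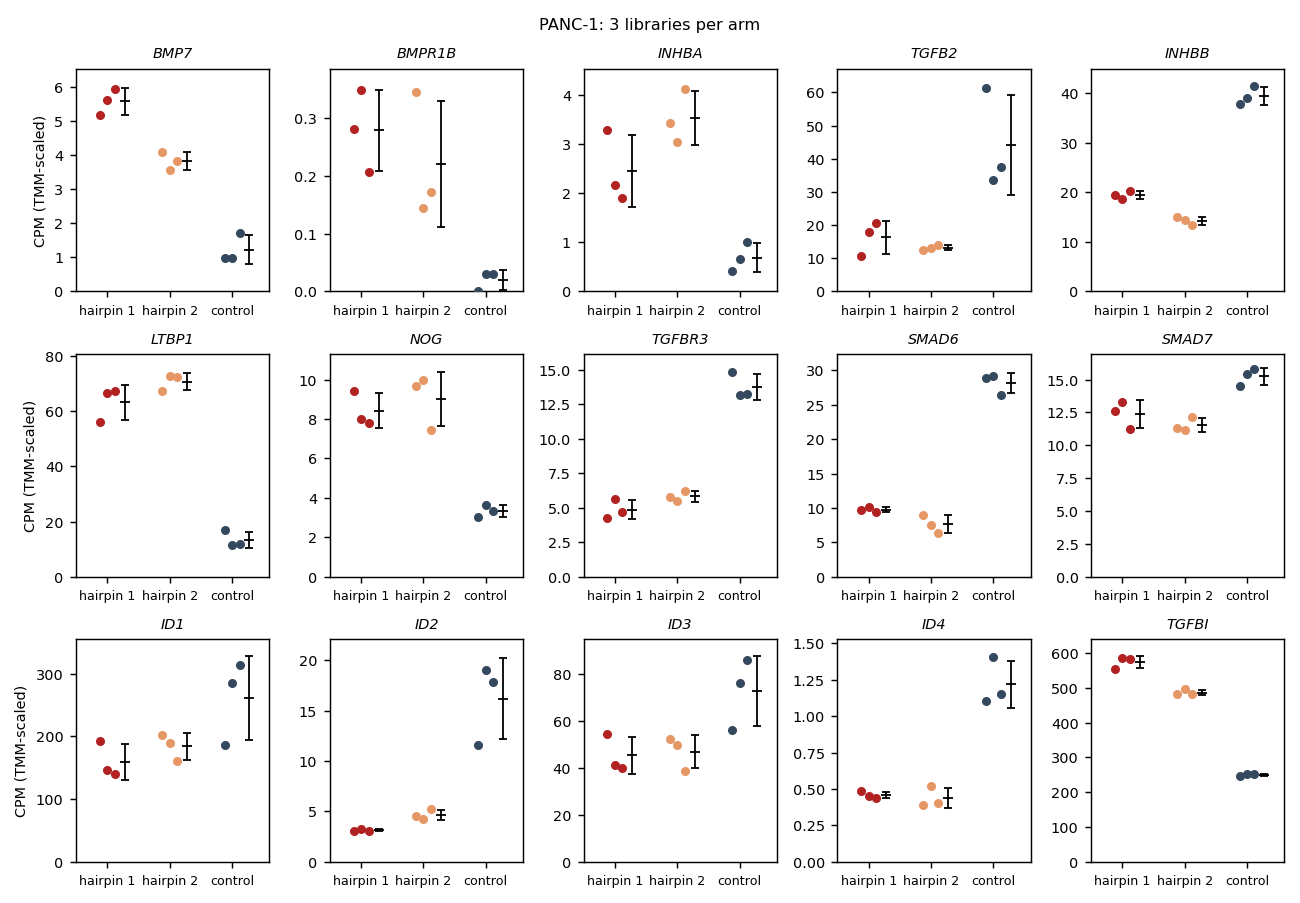
CPM (TMM-scaled) of 15 pathway genes in PANC-1, with 1 point per library for hairpin 1, the libraries labelled hairpin 2 and the non-silencing control, and mean ± SD of 3 beside them. BMP7, INHBA, LTBP1, NOG and TGFBI are above the controls and INHBB, TGFBR3, SMAD6, ID2 and ID4 below them in every library, while ID1 overlaps its controls.

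SMAD6, SMAD7, ID3 and ID4 fell together with both constructs in PANC-1, and their RefSeq promoter windows (GRCh38.p14, 250 bases before to 50 after the start, 300 bases each) are shown because they hold SMAD-binding letters. Capitals mark CAGAC or its reverse complement GTCTG, and the palindrome GTCTAGAC, which holds neither of them. The windows are chr15:66701986-66702285 on the plus strand for SMAD6, chr18:48950916-48951215 on the minus strand for SMAD7, chr1:23559452-23559751 on the minus strand for ID3 and chr6:19837120-19837419 on the plus strand for ID4.
SMAD6: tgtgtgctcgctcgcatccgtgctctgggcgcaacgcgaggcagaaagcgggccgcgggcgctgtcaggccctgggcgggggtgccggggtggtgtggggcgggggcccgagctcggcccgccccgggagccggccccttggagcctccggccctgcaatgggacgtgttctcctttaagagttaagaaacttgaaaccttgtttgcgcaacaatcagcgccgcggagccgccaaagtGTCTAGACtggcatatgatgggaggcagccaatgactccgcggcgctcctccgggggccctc
SMAD7: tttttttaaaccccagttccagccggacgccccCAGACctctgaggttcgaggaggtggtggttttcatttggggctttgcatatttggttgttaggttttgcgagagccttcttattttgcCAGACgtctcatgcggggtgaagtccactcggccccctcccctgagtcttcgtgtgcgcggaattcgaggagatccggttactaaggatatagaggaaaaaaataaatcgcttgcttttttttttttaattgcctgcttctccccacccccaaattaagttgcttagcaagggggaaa
ID3: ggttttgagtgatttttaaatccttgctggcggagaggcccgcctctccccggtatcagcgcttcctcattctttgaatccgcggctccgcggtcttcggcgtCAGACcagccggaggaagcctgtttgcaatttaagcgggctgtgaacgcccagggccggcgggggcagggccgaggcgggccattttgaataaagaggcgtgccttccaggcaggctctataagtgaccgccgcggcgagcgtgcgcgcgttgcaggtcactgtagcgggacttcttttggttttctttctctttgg
ID4: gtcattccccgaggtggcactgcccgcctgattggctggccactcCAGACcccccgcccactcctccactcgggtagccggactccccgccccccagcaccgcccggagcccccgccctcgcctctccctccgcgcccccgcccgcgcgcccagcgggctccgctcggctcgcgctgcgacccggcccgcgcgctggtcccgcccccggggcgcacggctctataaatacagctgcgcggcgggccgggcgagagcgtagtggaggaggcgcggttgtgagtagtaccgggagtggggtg

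The palindrome begins at base 239 of the SMAD6 window. Only the first listed RefSeq window of each pathway gene was searched. That of SMAD7 lies inside the gene, whose 5' end is at chr18:48952052 (hg38), so the promoter at that end was not searched. GTCTAGAC was found in the windows of 0.202% of 35114 RefSeq promoters. Among the searched windows of 38 matched pathway genes, only that of SMAD6 held it. CAGAC, searched on both strands, was found in 45.3% of all promoters and in 17 of the 38. Its letters are present at 2 places in the SMAD7 window and at 2 in that of LTBP1, which rose, and at 1 place each in ID3 and ID4. TGFB2 and TGFB3, which also fell with both constructs, hold it at 2 places each. It is not in the windows of ID2, INHBB and TGFBR3, which fell with both as well, or in that of ID1. A link between these letters and the changes was not tested. GGCGCC, a GC-rich form bound by SMADs, was found in 13 of the 38 and in 19.2% of all promoters.

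Other genes of the pathway were taken from 2 lists, 61 further ligands, receptors and modulators and 35 textbook response genes. In PANC-1, 38 and 29 of them were tested. Of the 38, 6 rose and 1 fell with both constructs, where 12.7% of all genes rose and 11.1% fell with both, so the count that rose is near the background. GDF15, a distant family member induced by stress, averaged 118 ± 19 CPM with hairpin 1 and 110 ± 16 CPM in the libraries labelled hairpin 2, against 37.7 ± 4.4 CPM in controls. GDF10 and GDF1 also rose by more than 1 on the log2 scale, with control means of 0.894 CPM or below. GDF1 overlaps CERS1, so its counts are uncertain. THBS1, the thrombospondin that can activate latent TGF-beta, fell by 1.92 and 1.80.

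Of the 29 response genes, 8 rose and 9 fell with both constructs, against the same 12.7% and 11.1% of all genes. Genes known from TGF-beta responses went both ways. ACTA2 (smooth muscle actin) rose by 2.89 and 2.55 on the log2 scale, SNAI1 (the transcription factor Snail) by 1.37 and 1.36, and BHLHE40 and ANGPTL4 by 1.24 to 1.57, and JUNB rose as well. CTGF, a matrix-associated growth factor gene, was at -0.69 and -1.17, and CDH2 (N-cadherin) and TPM1 (a tropomyosin) fell too. Among the genes known from BMP responses, ATOH8 was at -2.03 and -2.29, MSX2 at -1.59 and -1.40 and GATA2 at -1.25 and -1.14, all 3 past the test (edgeR quasi-likelihood, adjusted p from 2.3e-05 to 9.3e-05), while HEY1, also a Notch target, rose by 0.77 and 0.84. Between the PANC-1 constructs, 0 of the 39 pathway genes passed in the edgeR test, against 0.106% of all genes. At an unadjusted p under 0.05, 7 of the 39 did, and 2 passed in DESeq2's Wald test, where 202 of all genes did.

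In MDA-MB-468, few pathway genes passed. With hairpin 1, 1 of 41 tested genes rose and 3 fell, 9.76% against 2.27% of all 14641 genes tested (1.24% up and 1.03% down). With hairpin 2, 3 rose and 2 fell, 12.2% against 3.49% (1.69% up and 1.8% down). SOSTDC1 rose and BMP2 and BMP7 fell with both hairpins, 7.32% against 1.31% of all genes (0.744% up and 0.567% down). These 3 passed in every fit without 1 library, but the BMP2 call with hairpin 2 did not pass when hairpin 2 and the controls were fitted alone. 35 genes passed with neither hairpin, and FST and NOG were too low to test.

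SOSTDC1 (chr7:16461481-16530580, hg38), a secreted antagonist of BMP and WNT ligands, had 11, 11.6 and 11.5 CPM with hairpin 1 and 9.67, 7.91 and 8.64 CPM with hairpin 2, against 1.92, 2.00 and 1.95 CPM in the controls. All 6 hairpin libraries stood far above the controls, which lay close together. The log2 fold changes were 2.53 ± 0.11 and 2.16 ± 0.11 (edgeR quasi-likelihood, adjusted p = 3.5e-05 and 7.1e-05). BMP2 and BMP7, both BMP ligand genes, fell. BMP2 had 1.12, 1.15 and 1.16 CPM with hairpin 1 and 1.08, 1.53 and 1.29 CPM with hairpin 2, against 3.31, 2.78 and 2.84 CPM in the controls, log2 fold changes of -1.38 ± 0.17 and -1.20 ± 0.17 (adjusted p = 0.005 and 0.0065). BMP7 had 18.1, 18.1 and 18.4 CPM with hairpin 1 and 19.1, 17.6 and 21.0 CPM with hairpin 2, against 36.3, 31.9 and 32.6 CPM in the controls, log2 fold changes of -0.88 ± 0.09 and -0.80 ± 0.09 (adjusted p = 0.0022 and 0.0021). The hairpin and control libraries of both genes do not overlap.

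3 further genes passed with 1 hairpin only. TGFB1 averaged 20.6 ± 2.3 CPM with hairpin 1 and 22.7 ± 2.1 CPM with hairpin 2, against 31.4 ± 3.4 CPM in controls (SD, n = 3 each). It passed with hairpin 1 (-0.61 ± 0.12, adjusted p = 0.037) and not with hairpin 2 (-0.47 ± 0.12, adjusted p = 0.076), and the call ended in 8 of 9 fits without 1 library (-0.70 to -0.52). INHBA averaged 5.55 ± 0.49 CPM with hairpin 1 and 11.6 ± 2.3 CPM with hairpin 2, against 4.73 ± 1.2 CPM in controls. It rose with hairpin 2 (1.29 ± 0.21, adjusted p = 0.012), a call that ended without control replicate 3 (1.14 to 1.51 over those fits). TGFBI averaged 9.22 ± 0.51 CPM with hairpin 2, against 6.03 ± 0.49 CPM in controls, a rise of 0.61 ± 0.11 (adjusted p = 0.016). This call ended without control replicate 2 or hairpin 2 replicate 1 or 3 (0.56 to 0.67).

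The feedback and target genes that fell in PANC-1 did not pass in MDA-MB-468. ID2 had 38.3, 41.4 and 40.2 CPM with hairpin 1 and 36.2, 33.0 and 40.2 CPM with hairpin 2, against 35.7, 24.5 and 29.2 CPM in the controls. ID4 had 110, 110 and 112 CPM with hairpin 1 and 102, 92.2 and 110 CPM with hairpin 2, against 97.9, 73.3 and 78.5 CPM in the controls. The hairpin 1 libraries of both genes lie above the controls and those of hairpin 2 overlap them, with log2 fold changes of 0.29 to 0.42 (adjusted p from 0.13 to 0.35).

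ID1 had 20.2, 17.6 and 17.4 CPM with hairpin 1 and 25.6, 18.6 and 27.0 CPM with hairpin 2, against 27.0, 17.8 and 19.6 CPM in the controls. ID3 had 76.8, 68.1 and 72.3 CPM with hairpin 1 and 76.1, 60.2 and 81.7 CPM with hairpin 2, against 80.4, 54.1 and 62.0 CPM in the controls. Both sets of values overlap throughout. BAMBI had 23.0, 22.5 and 23.8 CPM with hairpin 1 and 27.0, 24.6 and 30.1 CPM with hairpin 2, against 25.4, 19.4 and 21.9 CPM in the controls. SMAD6 had 13.2, 11.4 and 11.3 CPM with hairpin 1 and 12.4, 13.3 and 12.4 CPM with hairpin 2, against 15.6, 12.7 and 12.4 CPM in the controls. These too overlap.

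SMAD7 had 6.04, 5.35 and 5.92 CPM with hairpin 1 and 6.17, 6.15 and 5.77 CPM with hairpin 2, against 8.30, 6.52 and 7.54 CPM in the controls. Its libraries do not overlap, but the log2 fold changes of -0.37 and -0.30 did not pass (adjusted p = 0.18 and 0.23). SMAD4 had 0.739, 0.588 and 0.549 CPM with hairpin 1 and 0.611, 0.287 and 0.373 CPM with hairpin 2, against 0.872, 0.666 and 0.351 CPM in the controls. The 11 receptor genes lay between -0.52 and 0.40 on the log2 scale. In the edgeR test, 0 of them passed with either hairpin (adjusted p of 0.22 or above), against 2.27% and 3.49% of all genes. At an unadjusted p under 0.05, 1 and 3 of the 11 did with hairpins 1 and 2, and DESeq2 called 0 with either.

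**Figure D4:**
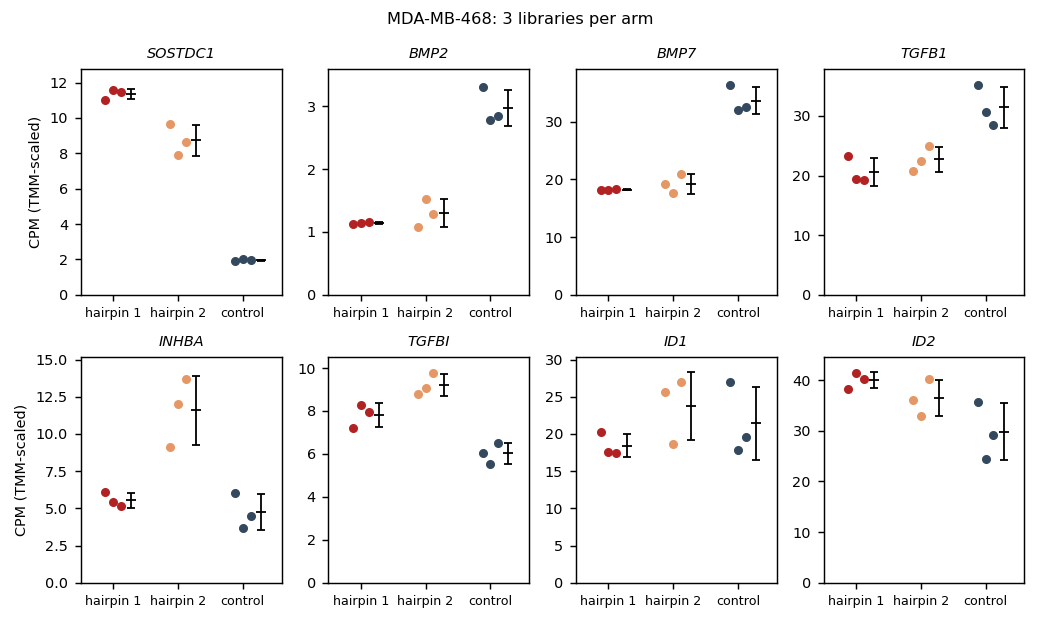
CPM (TMM-scaled) of 8 pathway genes in MDA-MB-468, with 1 point per library for hairpin 1, hairpin 2 and the non-silencing control, and mean ± SD of 3 beside them. SOSTDC1 is higher and BMP2 and BMP7 are lower in all 6 hairpin libraries, while ID1 overlaps its controls.

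Between the 2 hairpins, 0 of 41 genes passed in the edgeR test, against 0.437% of all genes. At an unadjusted p under 0.05, 7 of the 41 did, and 2 passed in DESeq2's Wald test, where 321 of all genes did. Of the 61 further ligands, receptors and modulators, 37 were tested and 0 passed with either hairpin, against 2.27% and 3.49% of all genes. In the edgeR test, 7 and 4 reached an unadjusted p under 0.05 with hairpins 1 and 2. Of the 25 response genes tested, HEY1, a target shared with Notch signalling, rose by 0.82 and 0.81 on the log2 scale, and TAGLN, an actin-binding protein of smooth muscle, fell by 0.93 and 0.94, 1 gene in each direction, where 0.744% of all genes rose and 0.567% fell with both.

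In WiDr, ID2 and TGFB3 rose and LTBP3, BMP8B and SMAD9 fell with both hairpins, and the share of pathway genes that passed was close to that of all genes. 32 of the 43 were tested, and the ligand genes BMP5, BMP6, BMP7 and INHBA, the antagonist genes SOSTDC1, FST, GREM1 and NOG, and BMPR1B, ID3 and ID4 were too low. With hairpin 1, 6 rose and 10 fell, 50% against 48% of all 14317 genes tested (24.1% up and 23.9% down). With hairpin 2, 9 rose and 6 fell, 46.9% against 44.7% (22.2% up and 22.5% down). The 5 genes shared by both hairpins are 15.6% of those tested, against 25.2% of all genes (12.3% up and 12.9% down), and ID1 and TGFBI passed with both in opposite directions, as did 2.28% of all genes. Without control replicate 3 or without hairpin 2 replicate 3, 2 genes passed with both in the same direction. The share of all genes in those fits is not given here. 18 of the 32 differed between the hairpins, 56.2% against 42.4% of all genes.

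LTBP3 (chr11:65538805-65558930, hg38), which encodes a latent TGF-beta binding protein, had 47.8, 47.1 and 51.7 CPM with hairpin 1 and 78.2, 76.9 and 74.0 CPM with hairpin 2, against 118, 134 and 126 CPM in the controls. The 3 groups form separate steps, with log2 fold changes of -1.36 ± 0.06 and -0.72 ± 0.06 (adjusted p = 5.2e-11 and 8.0e-08). BMP8B, a BMP ligand gene, had 2.31, 3.15 and 3.44 CPM with hairpin 1 and 4.05, 4.60 and 3.24 CPM with hairpin 2, against 5.38, 5.19 and 6.80 CPM in the controls, log2 fold changes of -0.95 ± 0.17 and -0.53 ± 0.16 (adjusted p = 0.00025 and 0.015). The hairpin 2 call ended without control replicate 3 or hairpin 2 replicate 3 (-0.66 to -0.40).

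TGFB3 had 0.586, 0.578 and 0.803 CPM with hairpin 1 and 0.915, 1.09 and 1.16 CPM with hairpin 2, against 0.441, 0.432 and 0.191 CPM in the controls. It rose by 0.89 ± 0.34 and 1.56 ± 0.32 on the log2 scale (adjusted p = 0.04 and 0.00094), and the hairpin 1 call ended in 6 of 9 fits without 1 library (0.60 to 1.06). SMAD9, a SMAD of the BMP branch, had 1.03, 1.86 and 1.45 CPM with hairpin 1 and 1.50, 1.44 and 1.53 CPM with hairpin 2, against 1.95, 2.25 and 2.26 CPM in the controls. Its libraries do not overlap. The log2 fold changes were -0.56 ± 0.21 and -0.53 ± 0.21 (adjusted p = 0.037 and 0.048), and these calls ended in 4 and 6 of 9 fits without 1 library (-0.77 to -0.38).

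ID2 rose with both hairpins. It had 58.9, 50.9 and 48.5 CPM with hairpin 1 and 43.2, 48.3 and 43 CPM with hairpin 2, against 35.3, 32.9 and 34.2 CPM in the controls, log2 fold changes of 0.63 ± 0.08 and 0.40 ± 0.08 (adjusted p = 5.1e-06 and 0.00049). ID1 had 73.2, 59.8 and 57.7 CPM with hairpin 1 and 41.1, 46.9 and 37.9 CPM with hairpin 2, against 48.7, 55.0 and 53.4 CPM in the controls. It was higher with hairpin 1 (0.28 ± 0.09, adjusted p = 0.025) and lower with hairpin 2 (-0.31 ± 0.09, adjusted p = 0.015). Each call of ID1 ended in 3 fits without 1 library, for hairpin 1 without control replicate 1 or 3 or hairpin 1 replicate 1 (0.17 to 0.34) and for hairpin 2 without control replicate 2 or hairpin 2 replicate 1 or 3 (-0.41 to -0.25).

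TGFBI had 32.0, 33.3 and 27.9 CPM with hairpin 1 and 51.2, 51.3 and 51.4 CPM with hairpin 2, against 44.9, 42.6 and 44.1 CPM in the controls. The controls lie between the hairpins, at -0.50 ± 0.07 and 0.23 ± 0.06 on the log2 scale (adjusted p = 1.4e-05 and 0.0096). SMAD6 had 30.0, 32.1 and 32.6 CPM with hairpin 1 and 34.7, 32.7 and 32.6 CPM with hairpin 2, against 29.8, 34.5 and 32.9 CPM in the controls. SMAD7 had 15.3, 16.9 and 15.2 CPM with hairpin 1 and 15.9, 15.5 and 16.8 CPM with hairpin 2, against 16.3, 17.6 and 17.1 CPM in the controls. Both inhibitory SMADs overlap their controls and did not pass. BAMBI had 7.29, 5.21 and 5.52 CPM with hairpin 1 and 8.04, 8.41 and 8.95 CPM with hairpin 2, against 6.11, 5.94 and 6.96 CPM in the controls, and it rose with hairpin 2 (0.42 ± 0.12, adjusted p = 0.01), a call that ended without control replicate 2 (0.37 to 0.49).

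Several genes passed with a single WiDr hairpin. SMAD3, the TGF-beta branch SMAD, averaged 335 ± 21 CPM with hairpin 1 and 455 ± 7.0 CPM with hairpin 2, against 456 ± 9.6 CPM in controls (SD, n = 3 each), a log2 fold change of -0.44 ± 0.05 with hairpin 1 (adjusted p = 4.5e-06). LTBP1 fell by 0.51 and TGFB1 rose by 0.39 with hairpin 1. With hairpin 2, TGFB2 averaged 31.0 ± 0.28 CPM, against 19.6 ± 2.2 CPM in controls, BMP4 averaged 182 ± 3.1 CPM, against 239 ± 10.6 CPM, and TGFBR1, the TGF-beta type I receptor, rose by 0.59. SMAD3, LTBP1, TGFB1, TGFB2, BMP4 and TGFBR1 also differed between the hairpins (adjusted p from 6.5e-06 to 0.0018), and each of these calls against the controls passed in every fit without 1 library. The BMP4 call did not pass with all 36 libraries in 1 fit. Of the rest, ACVR2A, an activin type II receptor gene, rose by 0.52 with hairpin 1, BMP1, BMPR1A, ACVR1B and SMAD1 fell by 0.19 to 0.29, and SMAD2 rose by 0.19. With hairpin 2, ACVR1 and SMAD5 rose by 0.26 and 0.31 and LTBP2 fell by 0.87. The calls of BMP1, ACVR1B, SMAD1, SMAD2 and LTBP2 each ended in 1 to 7 of 9 fits without 1 library, among them for BMP1, SMAD1 and SMAD2 the fit without control replicate 2 and for ACVR1B and LTBP2 that without control replicate 3. The ribosomal RNA share was higher in the hairpin 2 libraries than in the others, and without those genes 1 hairpin 2 call was lost, that of TGFBR2 (0.12 with them in).

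Of the first list of other pathway genes in WiDr with hairpins, 32 were tested, and 5 rose and 4 fell with both, near the 12.3% of all genes that rose and the 12.9% that fell. Of the 27 response genes tested, 1 rose and 10 fell with both, against the same shares of all genes. GATA2, a transcription factor known from BMP responses, averaged 4.64 ± 0.26 and 5.21 ± 0.52 CPM with the hairpins, against 12.7 ± 0.797 CPM in controls, log2 fold changes of -1.45 and -1.28.

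With guides in WiDr, 34 of the 43 genes were tested, all but BMP5, BMP6, BMP7, INHBA, FST, GREM1, NOG, BMPR1B and ID4. With guide 1, 7 rose and 12 fell, 55.9% against 41.6% of all 14649 genes tested (21.4% up and 20.3% down). With guide 2, 3 rose and 11 fell, 41.2% against 25.5% (14.1% up and 11.3% down). BMP2 and TGFB2 rose and BMP4, LTBP1, LTBP2, ACVR1B, ACVR2B and TGFBI fell with both guides, 8 genes in all and 23.5% against 14.7% of all genes (8.48% up and 6.26% down). Without control replicate 2 this count was 4, and 12 genes passed with guide 1. The share of all genes in that fit is not given here. BMP1 and ID2 passed in opposite directions, as did 1.65% of all genes. 16 of the 34 differed between the guides, 47.1% against 34.4% of all genes. These calls rest on the guide named in the titles. Grouped by the genotype field instead, 5 genes passed with guide 1, 0 with guide 2 and 0 between the guides in the edgeR test. Of all genes, 1353, 127 and 0 passed under that grouping, against 6100, 3731 and 5040 by title, so the loss was not particular to the pathway.

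BMP2 (chr20:6767664-6780280, hg38) had 10.1, 10.6 and 10.5 CPM with guide 1 and 8.41, 7.85 and 6.76 CPM with guide 2, against 4.92, 4.77 and 5.91 CPM in the controls. All guide libraries lay above the controls, with log2 fold changes of 1.00 ± 0.11 and 0.56 ± 0.11 (adjusted p = 1.4e-06 and 0.0015). BMP4 had 304, 324 and 321 CPM with guide 1 and 368, 392 and 409 CPM with guide 2, against 442, 438 and 458 CPM in the controls. Its 3 groups do not overlap, with log2 fold changes of -0.50 ± 0.05 and -0.20 ± 0.05 (adjusted p = 7.4e-07 and 0.0091), the second of which did not pass with all 36 libraries in 1 fit. TGFB2 rose by 0.63 and 0.40 on the log2 scale, and its guide 2 call ended in that same fit.

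LTBP1 and LTBP2, both grouped here under ligand processing and latency, fell with both guides. LTBP2 had 1.29, 2.01 and 1.23 CPM with guide 1 and 1.42, 1.48 and 0.787 CPM with guide 2, against 2.67, 2.05 and 2.38 CPM in the controls, log2 fold changes of -0.63 ± 0.24 and -0.95 ± 0.25 (adjusted p = 0.044 and 0.01). The guide 1 call ended in 5 of 9 fits without 1 library, among them each fit without a control library (-0.93 to -0.50). LTBP1 averaged 2.91 ± 0.27 and 2.60 ± 0.14 CPM with guides 1 and 2, against 3.99 ± 0.41 CPM in controls, at -0.45 and -0.62 on the log2 scale, and its guide 1 call ended without control replicate 2 (-0.55 to -0.37). LTBP3 passed with guide 2 only, at -0.41, against -0.12 with guide 1.

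The receptors ACVR1B, the activin type I receptor, and ACVR2B fell by 0.23 to 0.37 on the log2 scale. The guide 1 call of ACVR2B ended without control replicate 2 or guide 1 replicate 2 and its guide 2 call without control replicate 2 or 3 or guide 2 replicate 2 or 3 (-0.39 to -0.21 over both guides), and the guide 2 call of ACVR1B ended without control replicate 1 or 3 (-0.28 to -0.20). ACVR1, a type I receptor of the BMP branch, had 68.6, 67.2 and 62.5 CPM with guide 1 and 51.6, 51.6 and 47.9 CPM with guide 2, against 46.2, 46.2 and 45.5 CPM in the controls, and passed with guide 1 (0.52 ± 0.06, adjusted p = 1.2e-06). BMPR1A, TGFBR2 and TGFBR3 fell with guide 1 by 0.29, 0.26 and 0.47, and BMPR2 with guide 2 by 0.36. TGFBR1 rose by 0.18 with guide 1, a call that ended without control replicate 1 or guide 1 replicate 2 (0.17 to 0.19).

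SMAD3 (chr15:67063763-67195195, hg38) had 475, 451 and 461 CPM with guide 1 and 266, 253 and 246 CPM with guide 2, against 262, 264 and 254 CPM in the controls. Guide 2 overlaps the controls, and guide 1 lies far above both. The log2 fold changes were 0.83 ± 0.05 (adjusted p = 9.1e-10) with guide 1 and -0.03 ± 0.05 (adjusted p = 0.69) with guide 2. The guides differed by -0.86 ± 0.05, guide 2 over guide 1 (adjusted p = 5.1e-10). In the hairpin experiment SMAD3 was lower, not higher, with the construct at which it passed.

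The other SMAD calls were smaller. SMAD1 fell by 0.25 with guide 2, and SMAD2 rose by 0.13 with guide 1, a call that ended in 6 of 9 fits without 1 library, among them each fit without a control (0.10 to 0.15). BMP1 stood at 0.22 with guide 1 and -0.31 with guide 2, and its guide 1 call ended in 4 of those fits, among them that without control replicate 2 (0.20 to 0.26). INHBB averaged 0.55 ± 0.11 CPM with guide 2, against 0.94 ± 0.16 CPM in controls, at -0.77 on the log2 scale, a call that ended in 7 of 9 fits without 1 library, among them those without control replicate 1 or 3 (-0.95 to -0.63).

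SOSTDC1, which rose in MDA-MB-468, had 0.306, 0.480 and 0.574 CPM with guide 1 and 0.826, 0.997 and 1.11 CPM with guide 2, against 0.821, 1.2 and 1.21 CPM in the controls. It was lower with guide 1 (-1.21 ± 0.29, adjusted p = 0.0029), and guide 2 overlaps the controls (-0.14 ± 0.27, adjusted p = 0.75). In PANC-1 it was too low to test, as it was with hairpins in WiDr.

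ID2 had 17.7, 17.8 and 18 CPM with guide 1 and 24.9, 27.2 and 25.1 CPM with guide 2, against 20.9, 20.9 and 20.6 CPM in the controls. The controls lie between the guides, at -0.22 ± 0.06 and 0.31 ± 0.06 on the log2 scale (adjusted p = 0.011 and 0.002). Neither call passed with all 36 libraries in 1 fit. ID1 had 48.2, 49.8 and 53.3 CPM with guide 1 and 57.0, 58.2 and 71.5 CPM with guide 2, against 58.8, 57.2 and 59.6 CPM in the controls, and passed with guide 1 only (-0.21 ± 0.08, adjusted p = 0.031), a call that ended in 5 of 9 fits without 1 library (-0.25 to -0.18). ID3 had 0.102, 0.366 and 0.164 CPM with guide 1 and 0.295, 0.0302 and 0.146 CPM with guide 2, against 0.381, 0.411 and 0.587 CPM in the controls, and did not pass (adjusted p = 0.12 and 0.054).

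SMAD6 had 36.2, 37.0 and 36.2 CPM with guide 1 and 30.2, 29.3 and 36 CPM with guide 2, against 33.5, 32.6 and 38.4 CPM in the controls. SMAD7 had 18.3, 19.8 and 20.2 CPM with guide 1 and 19.1, 18.5 and 22.1 CPM with guide 2, against 16.6, 17.6 and 17.3 CPM in the controls. BAMBI had 3.78, 4.21 and 3.93 CPM with guide 1 and 3.51, 3.87 and 3.67 CPM with guide 2, against 4.28, 4.05 and 4.99 CPM in the controls. None of these 3 feedback genes passed with either guide, and their smallest adjusted p was 0.053, that of SMAD7 with guide 2 (0.21 ± 0.08). TGFBI had 50.5, 53.6 and 53.7 CPM with guide 1 and 38.6, 42.9 and 45.2 CPM with guide 2, against 60.9, 62.7 and 58.5 CPM in the controls, log2 fold changes of -0.21 ± 0.06 and -0.52 ± 0.06 (adjusted p = 0.012 and 1.4e-05). Its guide 1 call ended without control replicate 2 (-0.24 to -0.18).

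**Figure D5:**
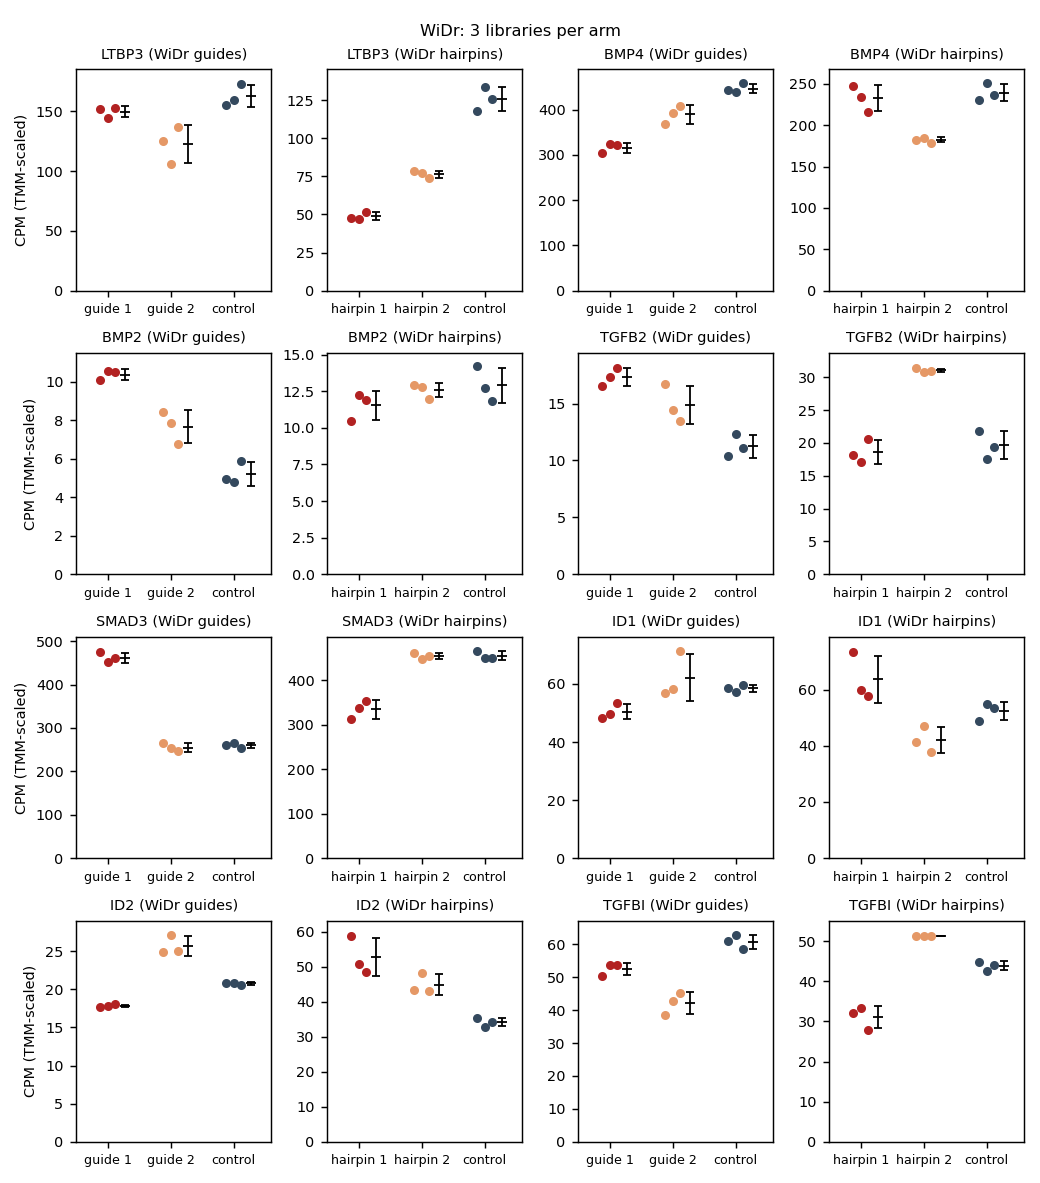
CPM (TMM-scaled) of 8 pathway genes in WiDr, guides and hairpins side by side for each gene, with 1 point per library and mean ± SD of 3 beside them; constructs 1 and 2 stand left of their control. SMAD3 is above its controls with guide 1 and below them with hairpin 1, and LTBP3 falls in steps with the hairpins.

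Of the other pathway genes tested with guides, 4 of 36 rose and 4 fell with both in the first list, and 2 of 28 rose and 4 fell in the list of response genes. Of all genes, 8.48% rose and 6.26% fell with both guides. FSTL1, a follistatin-like glycoprotein that binds BMPs, averaged 0.397 ± 0.033 and 0.612 ± 0.026 CPM with guides 1 and 2, against 0.168 ± 0.085 CPM in controls, a rise of 1.25 and 1.86 on the log2 scale. No gene of the 2 lists fell by 1 or more with both guides.

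The effects were then compared between experiments, as the mean of both constructs over the control in one experiment minus that in the other. A difference of at least 1 on the log2 scale that passed the edgeR test was found for 11 of 42 pathway genes between MDA-MB-468 and PANC-1 (26.2% against 7.56% of all genes), for 14 of 40 between WiDr and PANC-1 hairpins (35% against 10.9%), and for 4 of 41 between WiDr and MDA-MB-468 hairpins (9.76% against 4.07%). Between guides and hairpins in WiDr it was 1 of 34 (2.94% against 4.74%). ID2 differed by 2.46 ± 0.205 between MDA-MB-468 and PANC-1 (0.38 against -2.08, adjusted p = 4.9e-07) and by 2.54 ± 0.17 between WiDr and PANC-1 hairpins (0.51 against -2.03, adjusted p = 9.7e-09). SMAD6 differed by 1.58 ± 0.14 and 1.66 ± 0.12 in the same 2 contrasts (adjusted p = 1.1e-06 and 2.6e-08). The effects on both genes were lower in PANC-1 than in either other line.

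BMP7 went in opposite directions in 2 lines. Its mean effect was -0.82 for the MDA-MB-468 hairpins, against 1.92 for those of PANC-1, a difference of -2.75 ± 0.19 (adjusted p = 7.4e-08). LTBP1 differed by -2.69 ± 0.21 between MDA-MB-468 and PANC-1 and by -2.60 ± 0.17 between WiDr and PANC-1 hairpins (adjusted p = 2.2e-07 and 9.5e-09). LTBP3 stood at -1.04 in WiDr with hairpins and 0.51 in PANC-1, a difference of -1.55 ± 0.12 (adjusted p = 4.8e-08). Within WiDr, TGFB3 alone reached 1 in size, at -1.04 ± 0.35 (edgeR adjusted p = 0.022). At any size, 16 of 34 genes passed, and the share of all genes at that looser cut is not given here. Among those under 1, BMP2 stood at 0.78 with guides and -0.10 with hairpins, a difference of 0.87 ± 0.12 (adjusted p = 4.4e-06). SMAD3 stood at 0.40 and -0.22, a difference of 0.62 ± 0.06 (adjusted p = 1.2e-08). The mean over guides of SMAD3 rests on guide 1. The contrasts between lines compare cells that differ in much besides the construct, and line and experiment cannot be told apart there. In the contrast within WiDr, the kind of construct and the experiment cannot be told apart.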

How the data were processed

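Total RNA (Trizol, poly-A selection, HiSeq 2500) was sequenced from 36 libraries, per the labels' protocols. The authors deposited RSEM expected counts per gene symbol; alignment used Bowtie2 2.1.0 with RSEM 1.2.15 on hg38, per the submitters' processing notes. The annotation and strand setting were not given in the sources used here, so overlapping and antisense genes cannot be separated. 2349 genes had no count in any library. The gene that the constructs target and 2 genes of the further lists are not reported here.

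Expected counts were rounded to whole numbers. Each experiment (9 libraries, 3 groups) was fitted in R 4.3.3 with edgeR 4.0.16 (filterByExpr, TMM scaling, robust quasi-likelihood F test, no covariate), with Benjamini-Hochberg adjustment over all genes tested and a threshold of 0.05. CPM are TMM-scaled within an experiment. SEs of log2 fold changes were taken as the absolute change over the square root of F. Differences between experiments were fitted on 18 libraries. Values in every library were given for up to 12 members per experiment that rose or fell with both constructs at 0.5 or more on the log2 scale, and for SOSTDC1, ID1 to ID4, SMAD6, SMAD7 and BAMBI where tested. Of each further list, up to 4 genes up and 4 down that passed with both constructs at 1 or more were named. Further genes, such as SMAD3, TGFBI, HEY1 and TAGLN, were chosen after their values were seen. Members and lists were chosen with earlier results of these data known. The method was tested on simulated data. Alternatives were DESeq2 1.42.0, RLE size factors, no filter, all 36 libraries in 1 fit, 2 groups only, a replicate block, no ribosomal RNA genes, leaving out each library, and guides grouped by the genotype field. Promoters came from RefSeq (GRCh38.p14, 38 of 43 matched, first listed window of each gene) and gene positions from GENCODE 29 (43 of 43 matched). Library totals give counting precision only; the spread between the 3 libraries of a group sets the errors.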

Additional observations from a re-analysis of the deposited data

Results flagged for a closer look

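30 differences between experiments passed the edgeR test of the difference itself (quasi-likelihood, Benjamini-Hochberg adjusted) and were at least 1 on the log2 scale. Each is the mean effect of both constructs in the first experiment minus that in the second. For WiDr guides minus WiDr hairpins, the differences were TGFB3 -1.04 (edgeR adjusted p of 0.022). For MDA-MB-468 hairpins minus PANC-1 hairpins, the differences were BMP5 -1.62, BMP7 -2.75, TGFB2 1.51, INHBA -1.32, INHBB 1.19, LTBP1 -2.69, BAMBI 1.31, BMPR1B -3.26, SMAD6 1.58, ID2 2.46 and ID4 1.80 (edgeR adjusted p from 7.4e-08 to 0.012). For WiDr hairpins minus MDA-MB-468 hairpins, the differences were BMP2 1.2, TGFB3 1.24, INHBA -3.58 and SOSTDC1 -2.37 (edgeR adjusted p from 4e-05 to 0.017). For WiDr hairpins minus PANC-1 hairpins, the differences were BMP8B -1.37, TGFB2 1.84, TGFB3 1.73, INHBA -5.00, INHBB 1.29, LTBP1 -2.60, LTBP2 -1.25, LTBP3 -1.55, BAMBI 1.23, BMPR1B -3.07, TGFBR3 1.21, SMAD6 1.66, ID2 2.54 and TGFBI -1.27 (edgeR adjusted p from 3.8e-09 to 0.049). INHBA stayed at or below 0.22 CPM on average in every WiDr group and SOSTDC1 at or below 0.30 CPM in every WiDr hairpin group, so their differences against WiDr hairpins compare the other line with libraries near 0. INHBB and TGFB3 were low in the WiDr hairpin controls too, at 0.27 and 0.35 CPM on average and at most 12 and 15 counts in a library. The TGFB3 differences and that of INHBB between WiDr and PANC-1 hairpins rest on these low counts. Both BMPR1B differences rest on PANC-1 controls with rounded counts of 0, 1 and 1, so their size depends on the prior count of the fit, and in WiDr the gene was near 0 as well. The values of PANC-1 include the libraries labelled hairpin 2, whose label was not borne out.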

How the results depend on the processing

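Of 121 member values called against the controls, 78 passed in every fit without 1 library. RLE size factors lost 1 of the 121 calls, leaving out the ribosomal RNA genes 1, DESeq2 8, no filter on low counts 9, 2 groups only 15, the replicate block 16 and all 36 libraries in 1 fit 27, and none of these turned a called direction round. The replicate block ended calls of TGFBR2, SMAD7, ID1 and ID3 with hairpin 1 and of BMP2, BMP6, ACVR2A, TGFBR2, SMAD1, SMAD9 and ID3 in the libraries labelled hairpin 2 in PANC-1, of TGFB1 in MDA-MB-468, and of TGFB3, SMAD1, TGFBR2 and SMAD9 in WiDr hairpins. The fits of 2 groups ended those of TGFB1, BMP2, TGFBI and INHBA in MDA-MB-468, of ACVR2B, TGFB1, TGFBR2, SMAD7, ID1 and ACVR2A in PANC-1, of ACVR1B, TGFB3, SMAD1 and SMAD9 in WiDr hairpins and of INHBB with guide 2. The fit of all 36 ended BMP6 in PANC-1, BMP1, BMPR1A and ACVR1B with WiDr hairpin 1, BMP4, BMP8B, TGFBR2, SMAD5, SMAD9 and LTBP2 with hairpin 2 and ID1 with both, BMP1, BMPR1A, TGFBR1, TGFBR2, SMAD2, ID1 and LTBP2 with guide 1, BMP4, BMPR2, ACVR1B and TGFB2 with guide 2, and ID2 and ACVR2B with both guides. Grouping the guides by the genotype field lost 22 and turned 6 round: BMP1 stood at -0.078 with guide 1 and 0.25 with guide 2, ID2 at 0.12 and -0.20, and with guide 2 SMAD1 at 0.016 and INHBB at 0.28. Under that grouping 5 genes passed with guide 1, 0 with guide 2, 0 with both and 0 between guides. Of all genes, 1353, 127, 126 and 0 did. In the counts that follow, brackets hold the count among all genes. With all 36 libraries in 1 fit, MDA-MB-468 had 8 (900) and 9 (1268) genes with hairpins 1 and 2, 6 (497) shared and 1 (399) between hairpins. Fitted by experiment, these were 4 (332), 5 (511), 3 (192) and 0 (64). PANC-1 had 3 (510) between constructs, against 0 (16). WiDr had 9 (3964) with hairpin 2 and 3 (2239) shared, against 15 (6403) and 5 (3605). The guides had 10 (3620) and 8 (1261), with 3 (680) shared and 10 (2802) between them. Guides and hairpins in WiDr differed at 2 (623) genes in that fit and at 2 (735) with no filter, against 1 (705). With 2 groups only, 2 (127) genes passed with hairpin 2 in MDA-MB-468. In DESeq2, 2 (321) genes differed between the hairpins of MDA-MB-468 and 2 (202) between those of PANC-1. The 5 (3605) genes shared in WiDr hairpins were 3 (3311) in DESeq2, 3 (3461) with no filter and 3 (3282) with the replicate block.

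Without 1 library, the counts ran from 3 to 6 with hairpin 1, 4 to 7 with hairpin 2, 3 to 4 shared and 0 to 1 between hairpins in MDA-MB-468. In PANC-1 they ran from 15 to 28, 18 to 32, 14 to 28 and 0 to 1. In WiDr with hairpins they ran from 11 to 14, 11 to 19, 2 to 6 and 15 to 21, and with guides from 12 to 21, 11 to 16, 4 to 9 and 14 to 17. Counts among all genes in these fits are not given here, so a shift particular to the pathway cannot be read from them. Whether the replicate numbers pair the libraries was not settled. Deviations of libraries with the same number correlated between -0.85 and 0.84 over the experiments, and those with other numbers between -0.82 and 0.79. Deviations from a mean of 3 libraries sum to 0, so wide ranges such as these cannot decide it. Except where a fit has fewer libraries, the cause was not tested. With 3 libraries per group, genes below about 1 CPM gave wide errors.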
